A study of Mus musculus with 16 samples.

Results

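The lysosomal genes described here are 47 mouse genes chosen by name: soluble proteases, glycosidases, lipid-handling proteins, membrane proteins, the transcription factors Tfeb, Tfe3 and Mitf, and subunits of the vacuolar proton pump. Of these, 44 were found by gene symbol among the 19505 genes measured on the arrays, each through a single probe set. Ctsd, Glb1 and Atp6v0c are not analysed here.

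Total RNA of C57BL/6 mouse liver was measured on 1-colour Affymetrix-type arrays, 8 samples from controls and 8 from a model of NASH. NASH, nonalcoholic steatohepatitis, is fatty liver with inflammation and injured hepatocytes. The labels describe the tissue as biopsies and give no treatment, allele, age or sex for either group. How the model was induced is not stated in them, which limits what the group can stand for. No label says whether the samples of a group came from separate animals. The p-values therefore rest on the spread from sample to sample, which may be partly technical. Samples keep the numbers of their labels, so the model group holds NASH model 1a and 1b. Values are log2 intensities. A gene counts as called where its limma p, after Benjamini-Hochberg adjustment across the 19505 genes, was under 0.05, in a fit with no term but the group.

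Lysosomes are acidic organelles that break down proteins, glycans and lipids taken up from outside the cell or delivered by autophagy. The vacuolar ATPase (V-ATPase) acidifies them: its cytosolic V1 part splits ATP, and its membrane part, V0, carries the protons. Many lysosomal genes are known targets of the MiT/TFE transcription factors, which are held in the cytoplasm by mTORC1 at the lysosome surface when nutrients are plentiful and bind DNA at E-box motifs with the core CACGTG. In the liver every cell type has lysosomes, and macrophages, which digest dead cells and lipid, are especially rich in them.

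Because Tfeb, Tfe3 and Mitf are themselves among the genes, the E-box core was looked for in RefSeq promoters (GRCm38.p6). These run from 250 bases before to 50 after each start site, and 36 of the 44 genes had an entry. The 5 stretches that follow lie upstream of the gene's outermost start site and show promoters with several cores (Lamp1, Mcoln1 and Gla) beside those of strongly raised genes with none (Ctss and Psap). They read 5′ to 3′ on the gene's strand, with CACGTG in capitals, and cover chr8:13159011-13159160 (+) for Lamp1, chr8:3500369-3500518 (+) for Mcoln1, chrX:134601106-134601255 (-) for Gla, chr3:95526636-95526785 (+) for Ctss and chr10:60277478-60277627 (+) for Psap. The stretch of Gla starts 250 bases before its start site, and the others end at the base before it.
Lamp1: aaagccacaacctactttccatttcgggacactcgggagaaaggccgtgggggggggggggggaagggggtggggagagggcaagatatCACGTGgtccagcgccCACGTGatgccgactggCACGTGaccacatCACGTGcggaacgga
Mcoln1: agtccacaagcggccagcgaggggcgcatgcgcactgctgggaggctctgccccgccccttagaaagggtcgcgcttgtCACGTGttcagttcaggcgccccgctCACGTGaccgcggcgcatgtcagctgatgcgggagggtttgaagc
Gla: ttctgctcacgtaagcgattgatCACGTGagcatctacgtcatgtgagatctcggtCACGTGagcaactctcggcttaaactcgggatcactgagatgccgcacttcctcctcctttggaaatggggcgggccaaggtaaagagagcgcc
Ctss: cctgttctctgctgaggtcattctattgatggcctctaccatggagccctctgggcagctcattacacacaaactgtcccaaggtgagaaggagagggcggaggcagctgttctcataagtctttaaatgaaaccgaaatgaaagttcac
Psap: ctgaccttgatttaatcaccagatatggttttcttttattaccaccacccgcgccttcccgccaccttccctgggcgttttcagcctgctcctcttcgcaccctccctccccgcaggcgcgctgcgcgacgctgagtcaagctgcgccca

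Searched on both strands, CACGTG was in a promoter of 10 of the 36 genes (27.8%), against 8.09% of the 27025 genes in the table and 9.26% of the 15691 table genes that are on the array. The 10 were Atp6v0d1, Atp6v1a, Cln3, Ctsa, Ctsl, Gaa, Gla, Lamp1, Lgmn and Mcoln1. Longer forms that contain this core were likewise counted: GTCACGTG, resembling the element named for coordinated lysosomal expression and regulation (CLEAR), was in 7 of 36 (19.4%, against 2.55% of all genes in the table), and TCACGTGA was in 6 of 36 (16.7%, against 1.12%). GAGGAAGT, a motif of the ETS type bound by the myeloid factor PU.1, was in the promoters of Ctsc, Ctss, Gla and Gusb, 4 of 36 (11.1%, against 3.69%). A match describes these letters only and is not a binding site.

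Genes with and without the core had like median changes in the NASH model. The median log2 difference was 0.48 for the 10 genes with CACGTG and 0.47 for the 26 without, and the core was in 8 of 24 genes called higher and in 2 of 12 others. Lamp1, with 4 cores in the stretch shown, rose by 0.45 on the log2 scale, and Gla, with 2, by 1.23. Ctss and Psap, with none in theirs, rose by 2.77 and 1.54. Lgmn has a core and rose by 1.34, while Gaa and Atp6v0d1 have a core and were not called.

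Most of the lysosomal genes were higher in the NASH model livers. Of the 44, 29 were called higher, 2 lower and 13 were not called, and 12 of the 29 rose at least 2-fold. Over all genes 26.6% were called in either direction, 13.2% were called higher, 13.4% lower and 4.02% called at least 2-fold higher. The median difference of the 44 genes was 0.48 on the log2 scale, against -0.04 for all genes, and single genes ran from -0.59 for Smpd1 to 4.74 for Atp6v0d2. For 24 genes every NASH model sample lay above every control, and for 2, Smpd1 and Lamp2, every one lay below; over all genes these shares were 5.65% and 3.89%. When the dimmest 40% of genes were left out, all 44 genes stayed in, 31 were called higher and the background share rose to 20.7%. In bulk tissue, more or fewer cells of a type cannot be told apart from more or less RNA per cell.

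**Figure D1:**
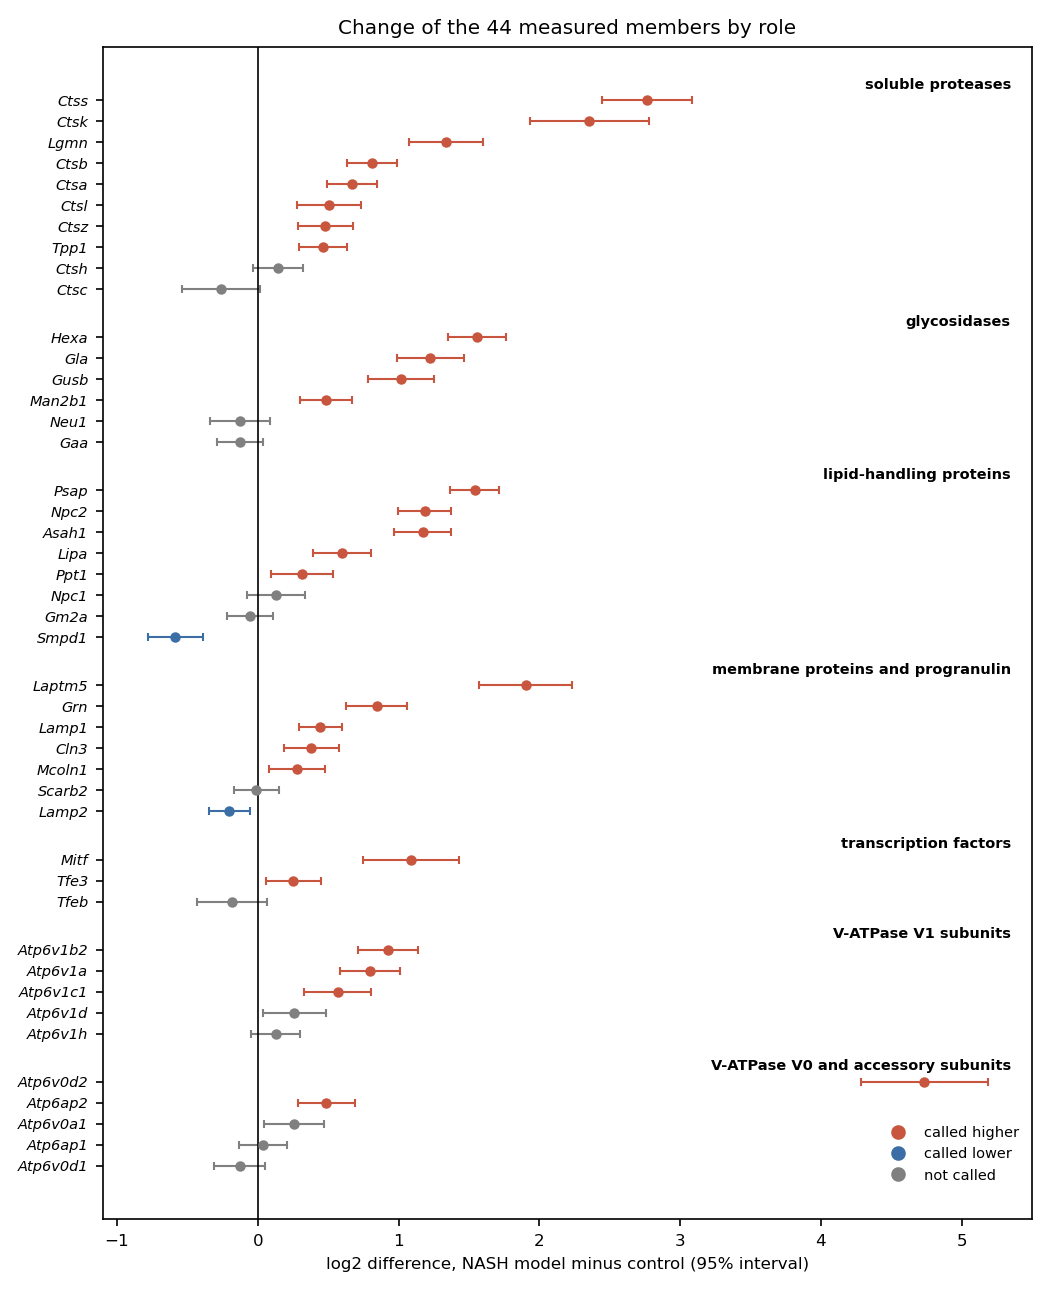
Log2 difference of each of the 44 measured lysosomal genes, NASH model minus control (8 samples per group), by role; points are limma estimates and bars their 95% intervals, with the colour giving the call. The points run from -0.59 (Smpd1) to 4.74 (Atp6v0d2), and each role holds at least 1 gene that was not called.

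Among the soluble proteases 8 of 10 rose and 2 were not called. Cathepsin S (Ctss), a cysteine protease of antigen-presenting cells that trims the invariant chain of MHC class II, ran from 6.53 to 7.80 in the controls (median 7.29) and from 9.61 to 10.28 in the NASH model (median 10.01; log2 intensity). The groups did not overlap, and the 6.80-fold rise was 2.77 ± 0.15 on the log2 scale (SE, n = 8 per group, limma adjusted p = 6.2e-11). Cathepsin K (Ctsk), the collagen-cutting protease best known from osteoclasts, ran from 2.38 to 3.33 in the controls (median 2.89) and from 4.54 to 6.01 in the NASH model (median 5.19). Its groups were also fully apart, with a difference of 2.35 ± 0.20 (limma adjusted p = 3.8e-08), but 4 of 8 controls lay under the background floor of 2.89, so background limits the size of this rise. Ctsk and Ctss are neighbouring protein-coding genes on chromosome 3.

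Legumain (Lgmn), the asparaginyl endopeptidase that matures cathepsins, ran from 8.20 to 9.21 in the controls (median 8.69) and from 9.88 to 10.24 in the NASH model (median 9.96). All 8 model samples lay above all 8 controls, and the rise of 1.34 ± 0.12 was 2.53-fold (limma adjusted p = 1.2e-07). Smaller rises, again without overlap, were those of the cysteine proteases Ctsb (0.81 ± 0.09), Ctsl (0.51 ± 0.11) and Ctsz (0.48 ± 0.09), of Ctsa (0.67 ± 0.08), the protective protein of β-galactosidase and neuraminidase, and of the tripeptidyl peptidase Tpp1 (0.46 ± 0.08). The aminopeptidase-like cathepsin H (Ctsh) had a difference of 0.14, with a 95% interval from -0.03 to 0.32. Cathepsin C (Ctsc), which activates the serine proteases of granulocytes, had a difference of -0.26, with an interval from -0.54 to 0.02. Its controls spread widely (SD 0.34), with control 5 lowest at 8.96 and control 4 highest, while the NASH model samples lay between 9.01 and 9.54.

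Of the 6 glycosidases, 4 rose. Hexa, the α subunit of β-hexosaminidase, which cuts GM2 ganglioside, ran from 6.71 to 7.10 in the controls (median 6.95) and from 8.29 to 8.84 in the NASH model (median 8.43). No model sample came near the controls, and the rise was 2.94-fold (1.56 ± 0.10, limma adjusted p = 4.4e-10). Gla, the α-galactosidase that clears globotriaosylceramide, had control values from 4.49 to 5.14 (median 4.81) and model values from 5.77 to 6.51 (median 6.00).

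Gla therefore rose without overlap, by 1.23 ± 0.11 (limma adjusted p = 1.1e-07). Gusb, β-glucuronidase, went from 5.70 to 6.33 in the controls (median 6.07) and from 6.85 to 7.46 in the NASH model (median 7.01), a separate range with a rise of 1.02 ± 0.11 (limma adjusted p = 9.9e-07). Man2b1, an α-mannosidase, rose by 0.48 ± 0.09. Neu1, the lysosomal sialidase, and Gaa, the α-glucosidase that degrades glycogen, were not called, with differences of -0.12 (95% interval -0.34 to 0.09) and -0.13 (-0.29 to 0.04).

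Proteins that handle lipids split more: 5 of 8 rose, Smpd1 fell and 2 were not called. Prosaposin (Psap), the precursor of the saposins that lift sphingolipids to their hydrolases, ran from 9.11 to 9.42 in the controls (median 9.22) and from 10.67 to 11.09 in the NASH model (median 10.75). The groups were far apart for so narrow a spread, with a rise of 1.54 ± 0.08, or 2.91-fold (limma adjusted p = 4.6e-11). Npc2, which hands cholesterol to Npc1 inside the lysosome, ran from 5.29 to 5.83 (median 5.49) and from 6.60 to 6.87 (median 6.68), and rose by 1.19 ± 0.09 (limma adjusted p = 7.6e-09). Npc1 itself, the membrane protein that takes the cholesterol on, was not called (0.13, 95% interval -0.08 to 0.33).

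Asah1, acid ceramidase, had control values from 5.96 to 6.54 (median 6.24) and model values from 7.20 to 7.56 (median 7.44). It rose without overlap by 1.17 ± 0.10 (limma adjusted p = 2.3e-08). Acid sphingomyelinase (Smpd1), the enzyme that makes ceramide from sphingomyelin, went the other way, from 6.34 to 6.93 in the controls (median 6.55) to 5.79 to 6.17 in the NASH model (median 6.01). Every model sample lay below every control, and the 1.50-fold fall was -0.59 ± 0.09 (limma adjusted p = 7.2e-05). So the transcripts of 2 enzymes on either side of ceramide, one that produces it and one that degrades it, changed in opposite directions. This contrast covers these 2 genes only. Galc, another lysosomal enzyme that releases ceramide, was called higher with overlapping groups (0.53 ± 0.19, limma adjusted p = 0.044).

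Lipa, the acid lipase that cleaves cholesteryl esters and triglycerides, rose by 0.60 ± 0.10 without overlap. Ppt1, a palmitoyl-protein thioesterase, rose by 0.32 ± 0.11 with overlapping groups (limma adjusted p = 0.030). The call for Ppt1 ended without control 1, control 6, control 10 or NASH model 1a, 2 or 4, at adjusted p from 0.051 to 0.064. Gm2a, the GM2 activator that presents the ganglioside to β-hexosaminidase, was not called (-0.05, 95% interval -0.22 to 0.11), unlike Hexa.

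Of 6 membrane proteins and progranulin, 5 rose, Lamp2 fell and Scarb2 was not called. Laptm5, a lysosomal membrane protein of blood cells, ran from 6.86 to 8.02 in the controls (median 7.22) and from 9.05 to 9.39 in the NASH model (median 9.26). The rise of 1.90 ± 0.16, or 3.74-fold, came with no overlap (limma adjusted p = 2.4e-08), and the controls spread more widely than the model samples (SD 0.46 and 0.13). Progranulin (Grn), a secreted protein that is also cut into granulins in lysosomes, rose by 0.84 ± 0.10. Its control 4 stood above the other controls, at 9.76 against 8.99 to 9.31, and still below the lowest model sample at 9.85.

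The heavily glycosylated membrane proteins Lamp1 and Lamp2, which line the lysosome, moved apart. Lamp1 ran from 10.05 to 10.20 in the controls and from 10.48 to 10.78 in the NASH model, a rise of 0.45 ± 0.07 without overlap (limma adjusted p = 1.0e-04). Lamp2 ran from 10.84 to 11.08 in the controls (median 10.92) and from 10.64 to 10.80 in the NASH model (median 10.74). This range lay wholly below the controls, but by little: the difference was -0.20 ± 0.07 (limma adjusted p = 0.037). The call for Lamp2 ended with values as deposited (adjusted p = 0.056), with cyclic loess (0.20, difference -0.13) and with spike-in centring (0.63, difference -0.08). It also ended without control 5, 6, 7, 9 or 10 or NASH model 2, 3, 4 or 5, at adjusted p from 0.051 to 0.072.

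Cln3, a membrane protein that is lost in juvenile Batten disease, rose by 0.38 ± 0.09 (limma adjusted p = 0.0042). Mcoln1, the calcium channel of the lysosome, rose by 0.28 ± 0.10 (limma adjusted p = 0.035). That call ended when control 1, 3, 6 or 9 or NASH model 1b or 2 was left out, at adjusted p from 0.052 to 0.072. It also ended with values as deposited (0.055) and with arrays centred on their medians (0.17). Cln3 and Mcoln1 both had overlapping groups. Scarb2, which carries β-glucocerebrosidase to the lysosome, had a difference of -0.01, with a 95% interval from -0.17 to 0.15.

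**Figure D2:**
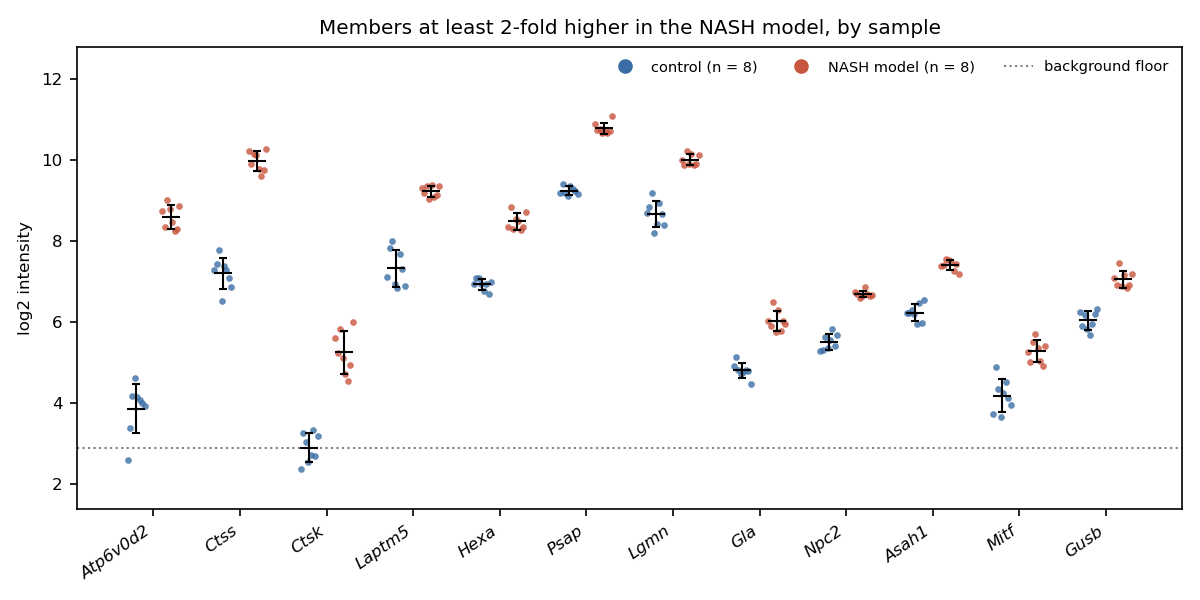
Log2 intensity in each sample for the 12 lysosomal genes called at least 2-fold higher in the NASH model; points are samples (8 per group), bars the mean and SD, and the dotted line the background floor of 2.89. For each gene every NASH model sample lies above every control, the closest being Mitf (4.90 against 4.92), and 4 controls of Ctsk and 1 of Atp6v0d2 lie under the floor.

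The MiT/TFE factors themselves differed from each other. Mitf, the member known from melanocytes and osteoclasts, ran from 3.67 to 4.90 in the controls (median 4.19) and from 4.92 to 5.71 in the NASH model (median 5.32). The groups just failed to touch, and the rise was 1.09 ± 0.16, or 2.13-fold (limma adjusted p = 3.5e-05). Tfe3 ran from 5.51 to 6.07 (median 5.87) and from 5.89 to 6.22 (median 6.14), overlapping ranges with a difference of 0.25 ± 0.09 that passed the threshold by little (limma adjusted p = 0.049).

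The call for Tfe3 held in 11 of 29 alternative settings, and the adjusted p was 0.061 with arrays centred on their medians. Leaving out control 1, 5, 6, 7, 9 or 10 or NASH model 1a, 1b, 3, 4, 6 or 7 ended it, at adjusted p from 0.055 to 0.100. Tfeb, the best studied activator of lysosomal genes, had control values from 4.33 to 5.32 (median 4.99) and model values from 4.47 to 4.92 (median 4.76). The model samples lay within the control range, and Tfeb was not called (-0.19, 95% interval -0.43 to 0.06). Without control 5, its lowest control, the difference was -0.27 and passed the threshold (limma adjusted p = 0.044). These are transcript levels, while the factors are regulated largely by phosphorylation and entry into the nucleus, which arrays do not measure.

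The proton pump rose in part. In V1, 3 of 5 subunits rose, all without overlap: the nucleotide-binding subunits Atp6v1b2 (0.93 ± 0.10) and Atp6v1a (0.80 ± 0.10) and the stalk subunit Atp6v1c1 (0.57 ± 0.11). Atp6v1d, of the central rotor, and Atp6v1h, a regulatory subunit, were not called, at 0.26 (95% interval 0.04 to 0.48, limma adjusted p = 0.079) and 0.13 (-0.05 to 0.30). Atp6v1d passed the threshold with values as deposited (limma adjusted p = 0.048), spike-in centring (0.025), cyclic loess (0.049) and the filter on dim genes (0.047). In V0 and the accessory subunits, Atp6v0d2 and the accessory protein Atp6ap2, also known as the prorenin receptor (0.49 ± 0.10), rose. Atp6v0a1 (0.26, 95% interval 0.05 to 0.47, limma adjusted p = 0.067) and Atp6ap1 (0.04, -0.13 to 0.21) were not called. Atp6v0a1 passed the threshold without control 3 (limma adjusted p = 0.025) or control 5 (0.045), and with spike-in centring (0.029), the filter on dim genes (0.038), eBayes with trend and robust options (0.033) and the exact permutation test (0.046).

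Atp6v0d2 encodes the form of subunit d known from osteoclasts and macrophages, and Atp6v0d1 the form present in most cells. Atp6v0d2 ran from 2.60 to 4.63 in the controls (median 4.04), with control 1 under the floor, and from 8.26 to 9.02 in the NASH model (median 8.62). The gap between the groups was wider than the spread of either, and the 26.6-fold rise of 4.74 ± 0.22 (limma adjusted p = 5.6e-12) ranked 4 among the rises of all 19505 genes. Atp6v0d1 ran from 7.82 to 8.11 in the controls (median 7.92) and from 7.55 to 8.09 in the NASH model (median 7.83). These ranges overlapped, and Atp6v0d1 was not called (-0.13, 95% interval -0.31 to 0.05).

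Within each array, the log2 difference of Atp6v0d2 minus Atp6v0d1 ran from -5.48 to -3.18 in the controls (median -3.90) and from 0.26 to 1.32 in the NASH model (median 0.85). All 8 model samples lay above all 8 controls. The mean change was 4.86 (two-sided exact permutation test, p = 1.554e-04, the smallest p that 8 against 8 samples can give). This shows unequal change of the 2 transcripts. It does not show which is more abundant, since intensities of different probe sets are not comparable.

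**Figure D3:**
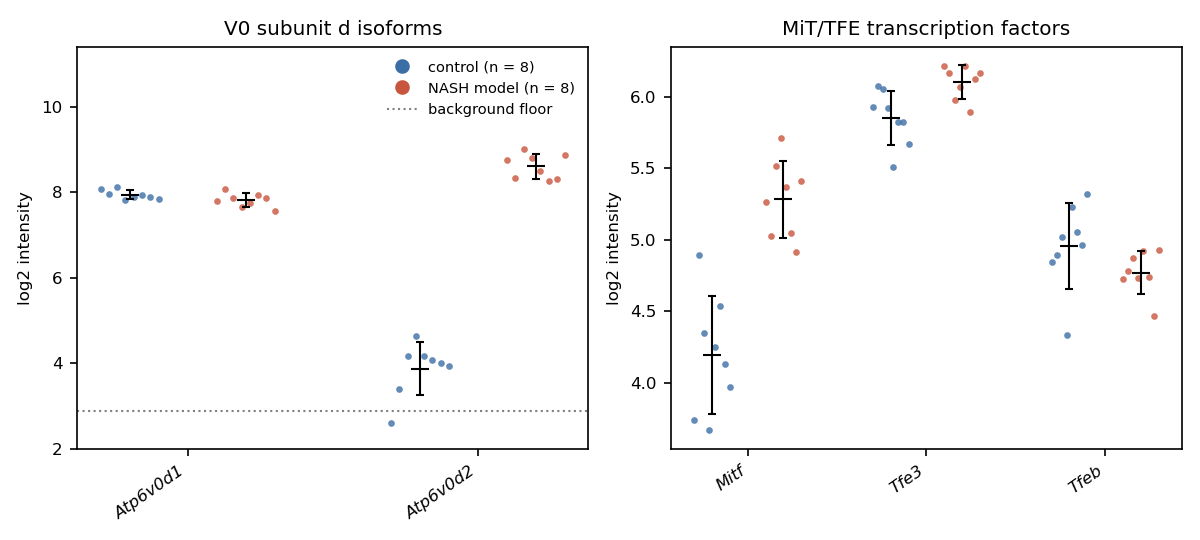
Log2 intensity per sample of both forms of V0 subunit d (left) and of Mitf, Tfe3 and Tfeb (right), 8 controls and 8 NASH model samples. Bars are the mean and SD, and the dotted line is the floor of 2.89. The controls and the model samples are fully apart for Atp6v0d2 and barely apart for Mitf, and they overlap for Atp6v0d1, Tfe3 and Tfeb.

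Across samples, the change was not carried by a single model sample. The mean level of the 44 genes ran from 7.25 to 7.48 in the controls and from 7.93 to 8.14 in the NASH model. NASH model 2 was the highest of its group in 12 of the 29 genes called higher and NASH model 7 in 7, while NASH model 5 was the lowest in 12. With NASH model 2 and 7 left out, 26 genes were called higher and 1 lower. Among controls, control 4 was the highest in 11 of the 29. The SD was larger in the NASH model than in the controls for 14 of the 44 genes, against 39.3% of all genes, and its median was 0.14 in the NASH model and 0.19 in the controls.

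**Figure D4:**
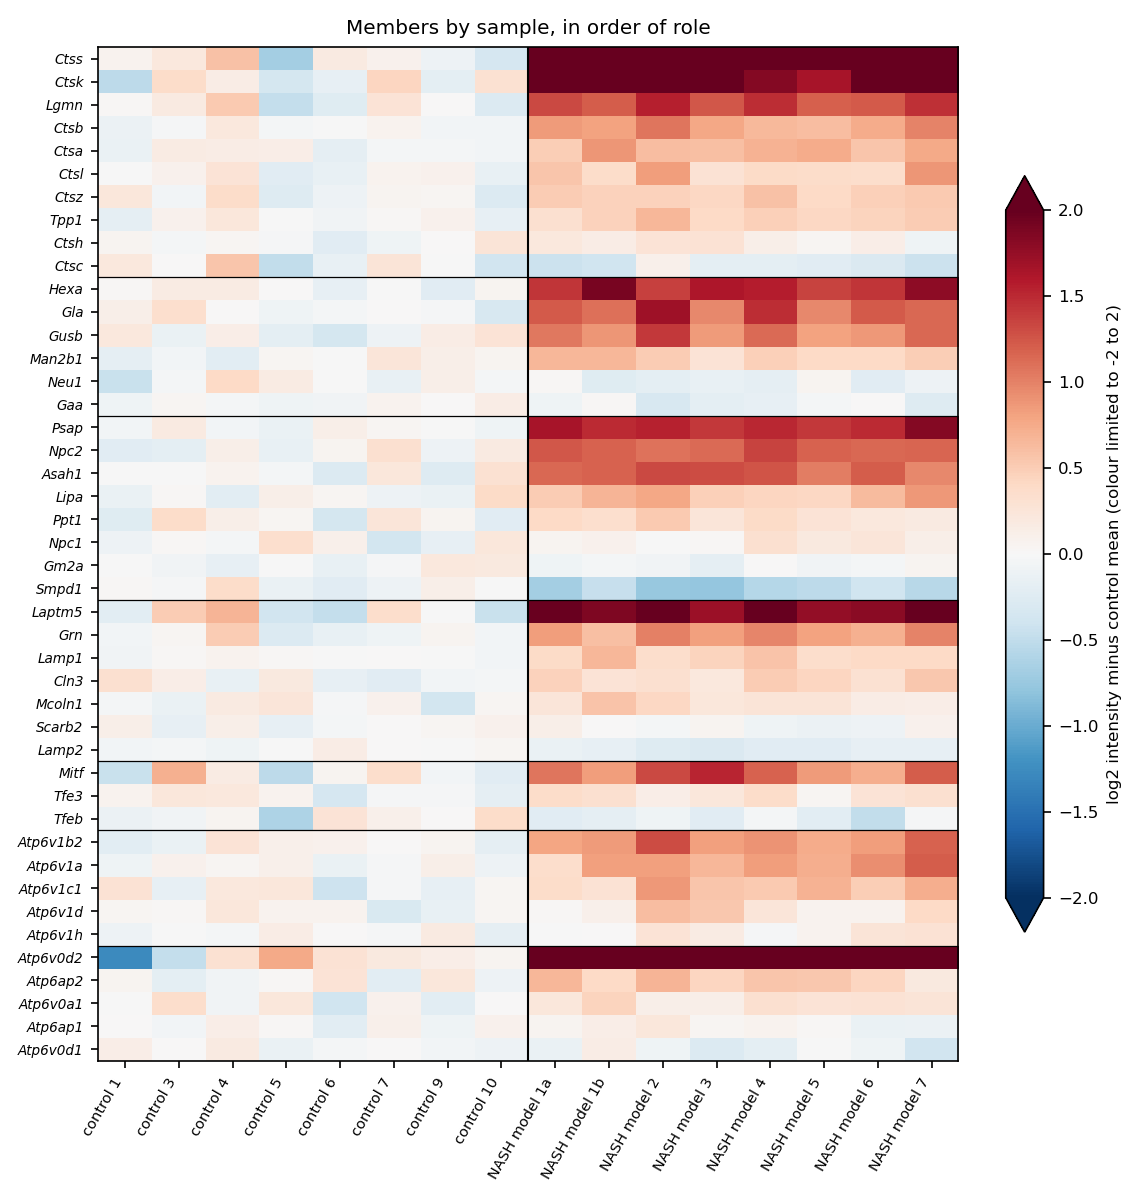
Log2 intensity of each lysosomal gene minus its control mean, for every sample (columns) and gene (rows, by role), with the colour scale limited to the range from -2 to 2. Rows of the genes called higher, such as Ctss, Hexa and Psap, are red in all 8 NASH model columns, and that of Smpd1 is blue in all 8.

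Lysosomal genes outside the 47 changed less uniformly. Over all genes 13.2% were called higher and 13.4% lower, and with the dimmest 40% left out 20.7% and 23.5%. Of 24 other lysosomal hydrolases that were measured, 8 rose (33.3%) and 2 fell (8.33%), with a median difference of 0.14. Among them, the sulfatases Galns (0.84 ± 0.17) and Arsa (0.72 ± 0.11) rose and Arsg (-0.83 ± 0.14) fell. Of 28 other membrane proteins, 8 rose (28.6%) and 5 fell (17.9%), with a median of 0.03. The largest changes in this list were rises, those of the tetraspanin Cd63 (3.48 ± 0.18), the sugar-phosphate transporter family member Slc37a2 (2.77 ± 0.13) and the metal transporter of phagosomes Slc11a1 (1.92 ± 0.13). All 8 NASH model samples lay above all 8 controls for each of these 3.

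Of 26 genes of lysosomal sorting and fusion, 7 rose (26.9%) and 5 fell (19.2%), with a median of 0.04. The largest called changes were rises of the small GTPase Rab7b (1.75 ± 0.19), the sorting receptor Sort1 (0.69 ± 0.14) and the clathrin adaptor subunit Ap1s1 (0.67 ± 0.13). Of 14 other V-ATPase subunits, 3 rose (21.4%) and 1 fell (7.14%), with a median of 0.10. Atp6v0a4 and Atp6v1b1 lay under the floor in 8 controls each, and in 6 and 7 model samples. Atp6v0e2, Atp6v1c2, Atp6v1g3 and Atp6v1e2 lay under it in part of both groups, so background limits what this list can show. The 3 that rose were Tcirg1, the a3 subunit of V0 known from osteoclasts (1.09 ± 0.13), Atp6v0e (0.78 ± 0.12) and Atp6v1e1 (0.57 ± 0.07). Of 22 genes of MiT/TFE regulation and of mTORC1 docking at the lysosome, 5 rose (22.7%) and 2 fell (9.09%), with a median of 0.06. In these 3 lists the shares called higher lie close to the 20.7% of all genes with dim ones left out. The counts therefore do not set these lists apart from other genes. The GTPases Rragd (2.54 ± 0.24, with 3 controls under the floor) and Rragc (0.62 ± 0.09) rose, as did Fnip2 (0.69 ± 0.16), which acts on them together with folliculin; Rragb lay under the floor in all 16 samples.

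Markers of macrophages moved with the lysosomal genes. All 18 measured genes of a macrophage and monocyte list were called higher, with a median difference of 1.67, and their mean level ran from 5.24 to 6.19 in the controls and from 7.21 to 7.50 in the NASH model. Of 8 genes of lipid-associated macrophages, 7 rose (median 3.76), and their mean level went from 4.22 to 4.75 in the controls to 8.20 to 8.80. Markers of Kupffer cells, the resident macrophages of the liver, went the other way in part: 4 of 9 fell and 1 rose (median -0.50; 6.00 to 7.12 against 5.40 to 6.14). No gene of these 3 lists was under the floor in all samples, but several were in part of them. Among the controls, Cx3cr1 lay under it in 8, Gpnmb and Mmp12 in 4 each, and Trem2 and Itgax in 2 each. In the NASH model, the Kupffer cell markers Cd163 and Timd4 lay under it in 3 and 5 samples. Background therefore limits the size of these changes. The part of these macrophages in the rise of the lysosomal genes was not tested.

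Markers of other cell types differed in direction, against shares of 13.2% called higher and 13.4% called lower over all genes. Hepatocyte genes, which check the tissue label, were bright in every sample, with mean levels from 11.50 to 11.60 in the controls and from 11.42 to 11.54 in the NASH model, and 0 of 13 rose and 3 fell. Osteoclasts and fused macrophages are a cell type with which Ctsk, Atp6v0d2, Mitf and Tcirg1 are commonly linked. Of 8 genes of their list 2 rose (25%), with median 0.19 and mean levels of 3.14 to 3.51 against 3.36 to 3.76. Calcr lay under the floor throughout, and Oscar in 8 controls and 7 model samples. Mmp9 lay under it in 5 controls and 6 model samples, and Dcstamp, which was called higher, in 8 and 4. Background thus limits what this list can show. Of 10 stellate cell and fibroblast genes 8 rose (median 1.58), 7 of them at least 2-fold. Among 5 cholangiocyte genes 3 rose (median 1.24), all with overlapping groups. Tspan8, the largest of these rises, lay under the floor in 7 controls and 1 model sample, which limits its size. Of 8 neutrophil genes 2 rose, with Mpo under the floor in all samples and Elane in 5 controls and 7 model samples. Of 11 genes of T, B and NK cells 3 rose and 1 fell. Klrb1c lay under the floor in all samples, and Ncr1 in 8 controls and 7 model samples. S100a8 and Cd8a, both called higher, lay under it in 7 controls each, so background limits these 2 lists as well. Of 10 endothelial genes 2 rose and 5 fell (median -0.30). The part of these cell types in the change of the lysosomal genes was not tested.

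**Figure D5:**
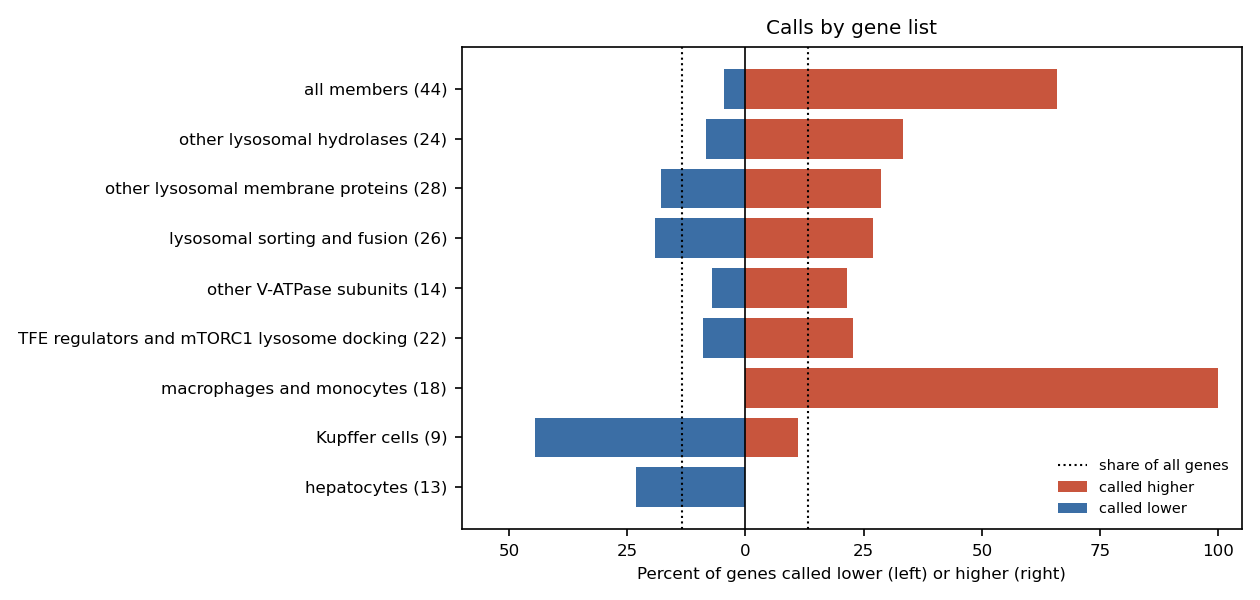
Percent of the measured genes of each list called higher (right) or lower (left) in the NASH model, with the number measured in brackets and dotted lines at the shares over all genes (13.2% higher and 13.4% lower). The 44 lysosomal genes stand at 65.9% higher, the macrophage and monocyte list at 100% and the hepatocyte list at 0%.

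Of 15 circadian clock genes 5 were called higher (33.3%) and 4 lower (26.7%), against 13.2% and 13.4% over all genes. With the dimmest 40% of genes left out, the shares over all genes were 20.7% and 23.5%. A clock score per sample, the first component of these genes within groups, ran from -2.63 to 3.50 in the controls and from -2.28 to -0.90 in the NASH model. Every NASH model score was negative, and among the controls only those of control 4 and control 5 were. Score and group thus largely coincide, and their effects on a call cannot be told apart. With this score as a covariate, 24 lysosomal genes were called higher and 1 lower, and the calls for Atp6v1c1 (adjusted p = 0.15), Cln3 (0.21), Ppt1 (0.24), Lamp2 (0.32), Tfe3 (0.54) and Mcoln1 (0.63) ended. Over all genes the calls dropped to 2926, from 5196.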

How the data were processed

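The authors deposited 1 table of log2 values for 29129 probe sets in 16 samples. Per the labels' protocols, RNA was isolated with TRIzol and carried a biotin label added by Affymetrix's standard method. The summarisation method and array build are not given in the sources used here. The log2 scale was inferred from the deposited values (0.623 to 12.7). Array medians ran from 3.52 to 3.66, so quantile normalization was applied, which moved no value by more than 0.159. Gene symbols came from the platform annotation (19572 probe sets with 1 symbol, 9557 with none), and the probe set with the highest mean was used per gene.

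Groups were compared with limma 3.58.1 (R 4.3.3, lmFit and eBayes, two-sided). A floor of 2.89 was the 95th percentile of 1412 olfactory and vomeronasal receptor genes. The number of arrays limits the precision. The lysosomal genes, lists and tests were chosen with earlier results of these data known. Lowest, median and highest values are given for genes called with at least 2-fold change and for the genes called lower. They are also given for Mitf, Tfe3, Tfeb and both d subunits. Of other lists the 3 called genes with the largest differences could be named. Tfec and Galc were named besides, after their values were seen. NASH model 1a and 1b differed with an SD of 0.387, against 0.340 to 0.466 in 27 other pairs, and were kept separate. The limma steps were tested on simulated data. Alternatives covered scaling, probe set choice, a filter on dim genes, eBayes options, array weights, left-out samples, a replicate block, a clock covariate and an exact permutation test. Figures used matplotlib 3.10.9 in Python 3.11.15.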

Additional observations from a re-analysis of the deposited data

Results flagged for a closer look

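In 3 of the 88 sets of 8 values (44 genes in each group) a single sample stood apart from the other 7 by Dixon's criterion, a share of 3.41%. Chance alone gives about 1 in 20. Cathepsin C (Ctsc) was highest in NASH model 2, at 9.54, with the other model samples at 9.01 to 9.25. Progranulin (Grn) was 9.76 in control 4 against 8.99 to 9.31 in the other controls. Tfeb was lowest in NASH model 6, at 4.47, and 4.73 to 4.92 in the rest of its group.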

How the results depend on the processing

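The number of lysosomal genes called higher stayed between 24 and 31 over 29 alternatives (29 in the analysis reported), and 25 of the 31 called genes kept their call in each of them. The other 6 were Tfe3, Lamp2, Mcoln1, Ppt1, Cln3 and Atp6v1c1. With NASH model 1a and 1b averaged, 27 genes were called higher and 2 lower, and the calls for Mcoln1 (limma adjusted p = 0.0504) and Tfe3 (0.077) ended. Genes called lower numbered 4 with median centring, where Ctsc and Gaa were added, 1 with values as deposited, spike-in centring, cyclic loess, the replicate block, the clock covariate or without NASH model 2 and 7, and 1 to 2 when single samples were left out. Deviations from the group means correlated little between samples that share a replicate number (-0.02 to 0.06), which does not settle whether samples were paired. With the replicate block 25 genes were called higher and 3924 of all genes were called. The calls for Cln3, Lamp2, Mcoln1, Ppt1 and Tfe3 ended there. With the clock covariate 2926 of all genes were called. The Atp6v0d2 minus Atp6v0d1 change stayed between 4.66 and 4.99 in the settings where it was computed. These did not include the filter on dim genes, the eBayes options, array weights or the replicate block. Centring cannot change a difference within an array. The rise of Atp6v0d2 alone ran from 4.46 to 4.87 over the alternatives. Scaling moved the median difference of all genes from -0.04 to -0.12 with median centring and to 0.06 with spike-in centring. The share of higher calls moved from 49.6% to 39.2% and 73.7%. The median of the lysosomal genes lay 0.53 above that of all genes in the analysis reported and with cyclic loess. It lay 0.51 above with values as deposited and with median or spike-in centring. Centring shifts all genes of an array alike, so it cannot change this gap. Signs turned only for genes that were not called: Atp6ap1 (-0.034 with median centring, -0.028 with the clock covariate, -7.964e-04 with the replicate block), Gm2a (0.0015 with spike-in centring, 0.015 with the block), Neu1 (0.068 with spike-in centring), Npc1 (-0.064 with the clock covariate), Tfeb (0.065 with spike-in centring, 0.083 with the clock covariate) and Scarb2 (0.063 with spike-in centring, 0.0048 with cyclic loess, 0.017 with the clock covariate). When single samples were left out, Scarb2 ran from -0.034 to 0.0063. The causes were not tested.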

Other observations

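Further lysosomal membrane genes, named after their values were seen, rose without overlap between the groups: the endolysosomal cation channel Tpcn2 (1.82 ± 0.18), the peptide and histidine transporter Slc15a3 (1.39 ± 0.13) and the nucleoside transporter Slc29a3 (1.01 ± 0.13). In the same list 5 genes fell. The sialic acid transporter Slc17a5 (-0.45 ± 0.10) and the sialomucin Cd164 (-0.36 ± 0.07) fell without overlap, and the transporter Abca2 (-0.99 ± 0.16), Mfsd8 (-0.47 ± 0.13) and Spns1 (-0.33 ± 0.09) fell with overlapping groups.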
